A study of Mus musculus with 46 samples.

Results

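Broad H3K4me3 domains are stretches of chromatin in which the H3K4me3 mark runs on for several kilobases instead of forming a short peak at a promoter. Here they were the peaks of 1 library of mouse visceral adipose tissue, vehicle at 5 weeks replicate 1, that were 4000 bases wide or wider, overlapped a peak of the second vehicle library at 5 weeks by at least 1 base, and overlapped no H3K27me3 peak of either vehicle library at 5 weeks. Of the 19007 H3K4me3 peaks of that library, 766 were wide enough, 1 of these had no partner in the second library and 63 overlapped H3K27me3. The remaining 702 peaks are the broad domains described here, 3.69% of the peaks and 9.98% of the bases that the peaks cover.

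The mice were given corticosterone (CORT), a glucocorticoid hormone used here to model Cushing's syndrome, or the vehicle alone (VEH). Treated mice were sampled in active disease (5 weeks) and after recovery (15 weeks), and each time had its own vehicle group. RNA was sequenced in 5 libraries per group, and chromatin immunoprecipitation of H3K4me3, H3K27ac and H3K27me3 in 2 libraries per group and mark, beside 2 input samples of chromatin that was not immunoprecipitated. The labels do not say that libraries of a group came from separate animals, so p-values measure the spread between these libraries, and the tissue holds several cell types, so that fewer cells of a type and less signal per cell cannot be told apart.

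H3K4me3 is deposited at gene starts by methyltransferases of the KMT2 and SETD1 families and removed by demethylases of the KDM5 family. In many mammalian cell types the widest H3K4me3 peaks lie at genes for the regulators and identity of that cell type. H3K27ac marks active promoters and enhancers, and H3K27me3, the mark of Polycomb complexes, marks repressed regions that can carry H3K4me3 as well, which is why peaks with H3K27me3 were set apart. The files give positions without gene names, on the mouse build mm9 of the submitters' processing notes, so the domains are named by position only.

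The tissue was checked in the RNA. Adipoq, the adipocyte hormone adiponectin, lay between 1641 and 4016 FPKM in the 20 libraries, Plin1 (perilipin, the coat of lipid droplets) between 153 and 509 FPKM and the macrophage gene Csf1r between 38.7 and 107 FPKM. Transcripts of liver, testis or epididymis stood out in 7 of the 20 RNA libraries (Alb up to 2095 FPKM, Prm2 up to 570 FPKM, Crisp1 up to 1430 FPKM), of which 3 were CORT at 5 weeks and 1 was VEH at 5 weeks. The 7 were set apart by high values of Alb, Prm2 or Crisp1 alone. Lcn5, listed with Crisp1 for epididymis and testis, reached at most 0.422 FPKM in any library. Among the peak lists, H3K27ac of CORT at 15 weeks replicate 1 stood apart with 1810 peaks, against 20644 to 52108 in the 7 other H3K27ac lists.

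The domains were 4000 to 11329 bases wide, with a median of 4780 and quartiles of 4316 and 5670 bases, while the median of all peaks in the list was 1746 bases. Of the 702, 291 reached 5000 bases, 130 reached 6000, 36 reached 8000 and 6 reached 10000. These widths chose the domains and are a description. At the threshold, the 3 narrowest domains were 4002, 4000 and 4000 bases wide and the 3 peaks just below it 3998, 3997 and 3996 bases. In the second vehicle library at 5 weeks the same 3 domains were 3504, 3016 and 3762 bases wide and the 3 peaks below the threshold 3963, 3935 and 3971 bases, so the order at the threshold is not kept from 1 library to the next.

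The widest domain, chr5:143574346-143585674 on mm9, was 11329 bases wide in VEH at 5 weeks replicate 1 and 11351 in replicate 2. Its peak measured 13925 and 11446 bases in CORT at 5 weeks, 11351 and 11681 bases in VEH at 15 weeks and 11785 and 12159 bases in CORT at 15 weeks. All 8 libraries thus kept it above 11000 bases. Both CORT libraries at 15 weeks were wider than both vehicle libraries, as held for 36.9% of all 19007 peaks. The next in width were chr5:123584147-123595292 with 11146 bases, chr9:102618885-102629850 with 10966, chr10:126414792-126424910 with 10119, chr14:22801213-22811291 with 10079 and chr19:5794713-5804726 with 10014 bases. Below 10000 bases followed chr17:34251207-34261199 with 9993, chr8:129110332-129120263 with 9932, chr11:100823346-100833217 with 9872 and chr7:77498971-77508735 with 9765 bases. In the other 7 H3K4me3 lists the peaks on these 10 domains were 7573 to 17137 bases wide.

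The domains did not fall evenly along the genome. Of the H3K4me3 peaks that met the other conditions of the rule, 4.87% were broad; the share was highest on chromosome 11, where 79 of 1239 peaks were broad (6.38%), and on chromosome 15, with 38 of 608 (6.25%). Chromosome X held 9 broad domains among 445 peaks (2.02%), the lowest share. No test of these shares was made. Some domains were close neighbours: 10 pairs were less than 10000 bases apart. On chromosome 19 a domain of 6248 bases (chr19:5839663-5845910) and one of 4523 bases (chr19:5845990-5850512) were separated by 79 bases, and on chromosome 6 the domains chr6:34812046-34816387 and chr6:34816620-34820657 by 232 bases. The third-closest pair, chr10:80129086-80133313 and chr10:80134468-80141727, lay 1154 bases apart. Such pairs may be counted as 1 wider domain in a library where the gap is called as well.

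H3K4me3 on the domains was found in every library, and the called width followed the library. In the 6 lists that the rule did not use, 701 of 702 domains held a peak in each list. The median width of the widest overlapping peak was 5814 and 4749 bases in the CORT libraries at 5 weeks, 4581 and 5317 bases in the VEH libraries at 15 weeks, and 5455 and 5335 bases in the CORT libraries at 15 weeks. The VEH libraries at 5 weeks, which chose the domains, gave 4780 and 4600 bases. At 5 weeks the CORT medians lay on both sides of 4780 bases and the groups overlapped. At 15 weeks they did not overlap, with 5335 bases as the lower CORT median and 5317 as the higher VEH median, while the VEH libraries differed from each other by more than that. Set in order, the 4 lists with the most peaks (28812 to 38728) had the medians from 5317 to 5814 bases, and the 4 lists with the fewest (18124 to 22996) had those from 4581 to 4780 bases, across treatments and times. The part of list size in the widths was not tested.

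**Figure D1:**
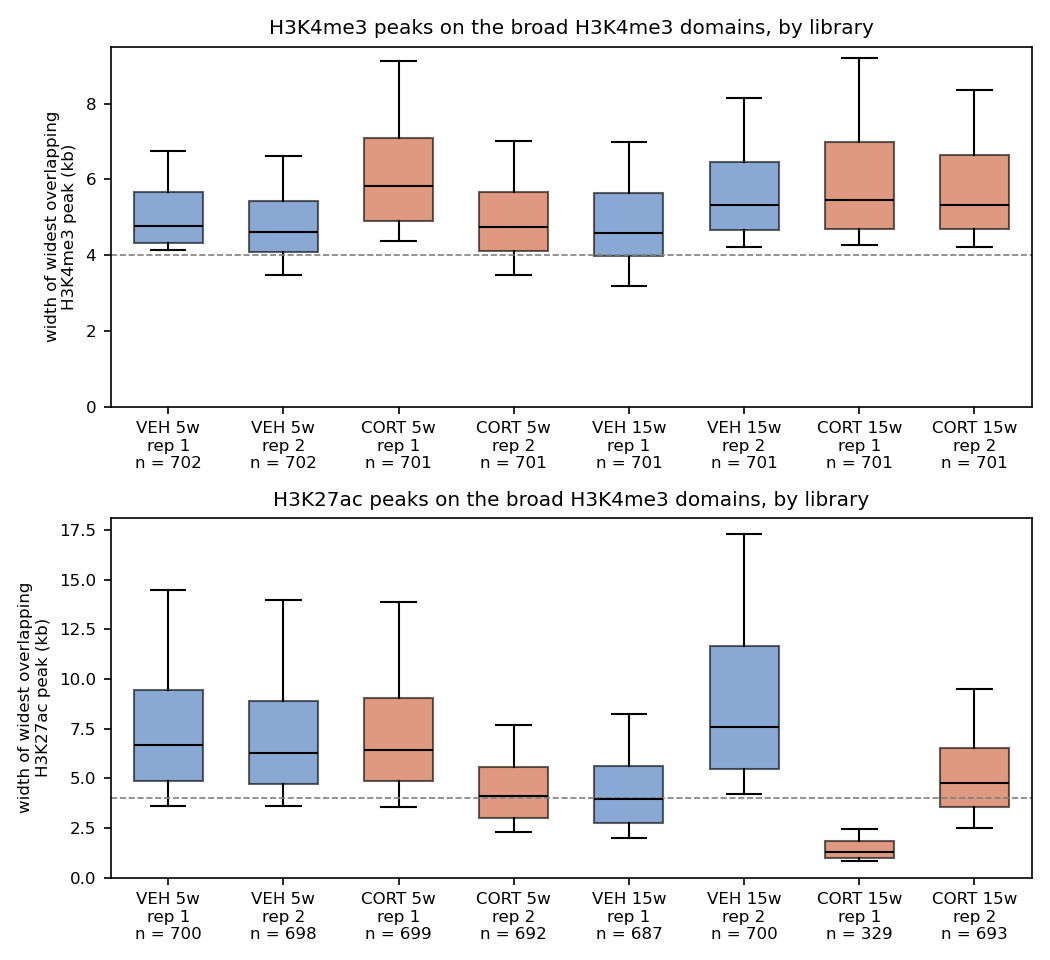
Width of the widest peak on each broad domain, in kilobases, for the 8 H3K4me3 lists (top) and the 8 H3K27ac lists (bottom); boxes give quartiles and median over the domains with a peak (n under each box), whiskers the 10th and 90th percentiles, and the dashed line the threshold of 4000 bases. H3K4me3 medians lie between 4581 and 5814 bases, and H3K27ac of CORT at 15 weeks replicate 1 lies far below the other lists with a median of 1277 bases.

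A width of at least 4000 bases recurred for most domains. It was reached by 674 and 560 domains in CORT at 5 weeks, 516 and 664 in VEH at 15 weeks, and 670 and 655 in CORT at 15 weeks. In all 6 unused libraries it was reached by 448 domains (63.8%), in 5 of 6 by 141, in 4 of 6 by 61, in 3 of 6 by 19 and in 2 of 6 by 18. Another 9 reached it in 1 library and 6 in none. Ordinary-width peaks are the 13721 narrower peaks that met the other conditions. At 15 weeks they crossed the same threshold in 261 and 743 cases in VEH and in 1066 and 1091 cases in CORT. These lists held 22996 and 29122 peaks in VEH and 38728 and 28812 peaks in CORT. The shortest list had the fewest such cases, but the longest did not have the most, and the part of list length was not tested. Across the 702 domains, the width in VEH at 5 weeks replicate 1 correlated with the width in the 7 other libraries at a Spearman rho of 0.595 to 0.678, a description over regions that share libraries.

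At 15 weeks, 238 domains (33.9%) were wider in both CORT libraries than in both VEH libraries, beside 36.9% of all 19007 peaks of the list treated in the same way and 39.7% of ordinary-width peaks. The reverse held for 25 domains (3.56%), beside 1.77% of all peaks and 1.89% of ordinary-width peaks. The share wider in CORT was thus near that of all peaks, the share wider in VEH rested on 25 domains, and no test was made of either. The widest peak on any domain in another list lay on chr15:76002812-76007401, which, singled out after its values were seen, measured 4590 and 1958 bases in VEH at 5 weeks, 15025 and 10925 in CORT at 5 weeks, 9053 and 12807 in VEH at 15 weeks and 30422 and 13631 in CORT at 15 weeks. The peak of 30422 bases also covered a second broad domain, chr15:76022026-76026575, which lies 14624 bases away, so its width is that of 2 domains called as 1 peak. The first of the 2 had no H3K27ac peak in any of the 8 lists. Over all domains, 43 were at least 2 times as wide in some other H3K4me3 list as in the list that defined them, 8 of them through a peak that lay on another domain as well.

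A few domains carried high input signal, where enrichment is less certain. The authors' deposited tables of each group against input give the mean normalized reads of each site on a log2 scale, and in VEH at 5 weeks the input of the domains had a median of 6.13. It exceeded 8 in 3 domains, singled out after their values were seen: chr1:90167861-90176508 (9.38), chr3:25445874-25453782 (8.53) and chr13:120276110-120281305 (8.33). The domain on chromosome 3 was 7909 and 6822 bases wide in the VEH libraries at 5 weeks and was the only one without a peak in any of the 6 other H3K4me3 lists; it also had no H3K27ac peak in any list. The other domains with high input held H3K4me3 peaks in all 8 lists.

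Relative to input, H3K4me3 was at about the same level on the domains as on narrower peaks. In the authors' deposited tables the median log2 ratio of H3K4me3 to input on the domains was 3.39 in VEH and 3.73 in CORT at 5 weeks, and 3.93 in VEH and 4.57 in CORT at 15 weeks. The ordinary-width peaks had 3.23, 3.57, 3.79 and 4.44 in the same order. H3K27ac over input was 3.10 in VEH and 2.99 in CORT at 5 weeks and 3.01 in VEH at 15 weeks on the domains, against 2.61, 2.50 and 2.46 on ordinary-width peaks. The domains lay above the ordinary-width peaks in each of these tables, by more for H3K27ac than for H3K4me3, as medians with no test.

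H3K27ac was present on nearly all domains outside 1 short list, and how far it reached followed the list. It was found on 700 and 698 domains in VEH at 5 weeks, 699 and 692 in CORT at 5 weeks, 687 and 700 in VEH at 15 weeks and 693 in CORT at 15 weeks replicate 2, but on 329 in the short list of replicate 1. The median width of the H3K27ac peak was 6672 and 6287 bases in VEH at 5 weeks, 6446 and 4100 in CORT at 5 weeks, 3950 and 7562 in VEH at 15 weeks and 4778 in CORT at 15 weeks replicate 2. The groups overlapped at both times. In VEH at 5 weeks the H3K27ac peak ran past both edges of the H3K4me3 peak on 56.4% and 53.9% of the domains, in VEH at 15 weeks replicate 1 on 110 of 687 and in replicate 2 on 495 of 700 (70.7%). In CORT it did so on 57.6% and 15.3% at 5 weeks and on 0% and 28.7% at 15 weeks. The median H3K27ac peak was wider than its domain in 4 of the 8 lists, both of VEH at 5 weeks, CORT at 5 weeks replicate 1 and VEH at 15 weeks replicate 2, and narrower in the other 4. The 4 former lists held 36284 to 52108 peaks and the 4 latter 1810 to 29341, and the part of list length was not tested.

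Around the domains, at 10000 bases from the centre, H3K27ac of VEH at 5 weeks covered 23.1% and 21.2% of the broad domains on one side, against 11.5% and 10.9% of ordinary-width peaks. H3K4me3 of the same libraries covered 5.27% and 5.13% of the broad domains at that distance and 4.27% and 3.86% of the ordinary-width peaks. A broad domain was thus more often flanked by H3K27ac than an ordinary-width peak in these libraries, as a count over regions with no test; distance is from the centre, and the edge of a broad domain lies nearer to that point.

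**Figure D2:**
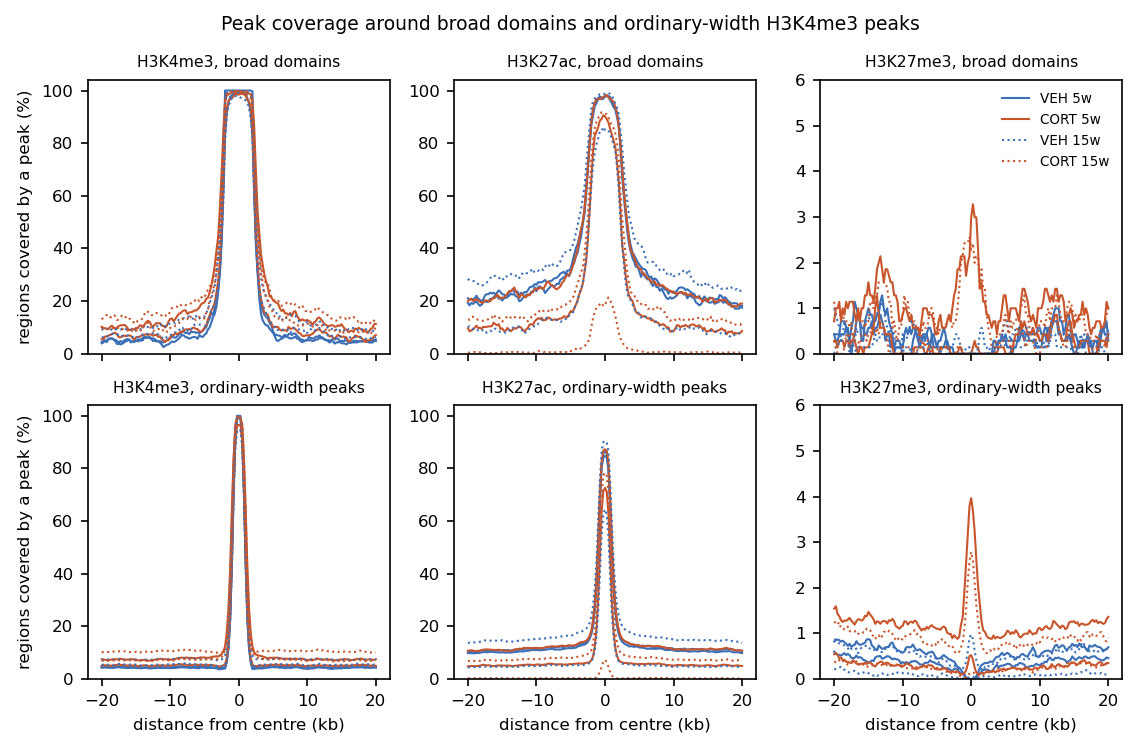
Share of regions covered by a peak (percent) against distance from the centre of the region (kilobases), for the 702 broad domains (top) and 13721 ordinary-width peaks (bottom), with 1 line per library, VEH in blue, CORT in orange, 5 weeks solid and 15 weeks dotted. At 10000 bases the H3K27ac lines of VEH at 5 weeks stand at 23.1% and 21.2% on broad domains and 11.5% and 10.9% on ordinary-width peaks; the H3K27me3 axis ends at 6% and its VEH lines at 5 weeks are 0 at the centre by the rule.

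For the change between CORT and VEH, the authors' deposited tables give, for each site, mean normalized reads of both groups on a log2 scale, their difference (CORT minus VEH), a p-value and an FDR, with sites called here at an FDR below 0.05. Each domain was read through the site with which it shared the most bases, and 10 domains shared their H3K4me3 site, and 16 their H3K27ac site, with another domain at each time. The median difference over all sites was above 0 in every table, from 0.48 to 0.85 for H3K4me3 and H3K27ac, and the sources used here do not say whether the Drosophila spike-in of the ChIP samples entered the scaling. Differences are therefore set beside the median of the whole table, and a difference above 0 but below that median is lower than at most sites.

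At 15 weeks, in libraries that did not choose the domains, H3K4me3 was called higher in CORT on 669 of 701 domains with a site (95.4%), against 47.1% of all 31037 sites. The median difference was 1.06, beside 0.85 over all sites and 1.10 on ordinary-width peaks. None of the domains was called lower, as was true of all sites (0%), and none had a difference below 0 or an unadjusted p below 0.05 on the lower side. The domains carry more reads than most sites (median log2 9.82 in VEH against 6.38), and the shares called among peaks of 2 to 3 and of 3 to 4 kilobases were 98.2% and 98.0%. A share above the background was thus found on narrower peaks with many reads as well, and it was not larger on the domains. Differences on the domains ran from 0.13 to 1.45, with 585 domains (83.5%) above the median of all sites.

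The 5 domains with the smallest p in the H3K4me3 table at 15 weeks had differences of 1.25 to 1.45. On chr9:65423986-65429131 the log2 reads were 9.24 in VEH and 10.66 in CORT, a difference of 1.41 with an FDR of 3.68e-19 in the authors' deposited table. Its peak was 5049 and 5222 bases wide in VEH and 5419 and 7053 in CORT at that time. The CORT widths were above the VEH widths, as held for 36.9% of all 19007 peaks. On chr12:114389428-114395260 the reads went from 9.52 to 10.97 (difference 1.45, FDR 3.8e-16), while the width was 2931 and 6549 bases in VEH and 6225 and 6568 in CORT, which overlap. The others were chr17:36001740-36008426 (1.43), chr17:29229984-29233983 (1.43) and chr9:85217078-85222469 (1.25). The domain at 29229984 was 2958 to 3373 bases wide in all 4 libraries at 15 weeks: a large difference in reads did not require a wide peak.

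At 5 weeks the H3K4me3 contrast contains the libraries that chose the domains, and its values are a description. The median difference was 0.60 on the domains, 0.61 over all sites and 0.61 on ordinary-width peaks. By the FDR of the authors' deposited table, 632 of 701 domains (90.2%) were called higher, beside 51.9% of all 23236 sites, and none lower, beside 0.0129%. The 5 smallest p among higher domains belonged to chr8:86724083-86729280 (0.96), chr15:5189211-5195287 (0.93), chr2:13493673-13499326 (0.99), chr12:114389428-114395260 (0.97) and chrX:163644567-163648802 (1.01). A difference below 0 was found on 6 domains, from -0.36 on chr6:113380957-113385938 to -0.04 on chr8:74092548-74097696, none of them called.

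Of the domains called higher for H3K4me3 at 5 weeks, 619 were called at 15 weeks, which is 97.9% of the calls at 5 weeks and 92.5% of those at 15 weeks. The difference at 5 weeks and that at 15 weeks ranked the domains alike at a Spearman rho of 0.547 (n = 701), where the points share neither libraries nor vehicle groups but share position and depth. On chr2:13493673-13499326, for example, the difference was 0.99 at 5 weeks and 1.24 at 15 weeks, with widths of 5654 and 5632 bases in VEH and 10593 and 8133 in CORT at 5 weeks. At 15 weeks its widths were 6791 and 7289 bases in VEH and 10906 and 8944 in CORT, again without overlap. Both CORT libraries were wider than both VEH libraries on 36.9% of all 19007 peaks at 15 weeks.

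H3K27ac, a mark the rule did not use, was called higher in CORT at 5 weeks on 166 of 700 domains (23.7%), against 17.2% of all 39581 sites. The median difference was 0.46, beside 0.48 over all sites and 0.49 on ordinary-width peaks, so that 304 domains (43.4%) lay above the median of the table. The reads again differed, with a median log2 of 9.32 in VEH on the domains and 6.23 over all sites. The call rests on the threshold: at an FDR below 0.01 it was 6 of 700 domains (0.857%). The share of all sites at that limit was not computed, so the drop is not read as a trait of the domains. The 5 smallest p among higher domains belonged to chr8:23915380-23919945 (0.96), chr19:3321344-3326572 (0.93), chr8:73130678-73136230 (0.98), chr8:123010358-123015032 (0.91) and chr2:13493673-13499326 (0.87). On the first of these the log2 reads were 8.31 in VEH and 9.27 in CORT, with an FDR of 0.00577 in the authors' deposited table, and its H3K27ac peak measured 4753 and 4715 bases in VEH and 4992 and 4506 in CORT.

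H3K27ac was called lower in CORT at 5 weeks on 3 domains (0.429%), against 0.134% of all sites. On chr7:146097350-146102330 the log2 reads were 9.79 in VEH and 9.19 in CORT, a difference of -0.60 with an FDR of 0.0329. Its H3K27ac peak was 9930 and 10472 bases wide in VEH and 5104 and 4911 bases in CORT, which do not overlap. The 3 domains were picked by their H3K27ac calls in these same libraries. The share of all H3K27ac peaks with such widths was not computed. The VEH lists held 40227 and 36284 peaks and the CORT lists 41590 and 22165. On chr7:121557401-121562601 the reads were 9.84 and 9.27 (-0.57, FDR 0.0364) and the peak 9396 and 9387 bases in VEH against 4701 and 3749 in CORT. The third lies on chromosome 18, with 8.91 and 8.30 (-0.60, FDR 0.0348 in the authors' deposited table). At 15 weeks the differences on these 3 domains were -0.45, -0.12 and -0.14, none of them called, and H3K4me3 at 15 weeks was 0.37, 0.87 and 0.26 higher in CORT, of which 0.87 on chr7:121557401-121562601 was called (FDR 1.42e-08).

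At 15 weeks H3K27ac was called higher on 243 of 697 domains (34.9%), against 15.5% of all 28322 sites. The median difference was 0.60 on the domains, 0.71 over all sites and 0.69 on ordinary-width peaks, and 236 domains (33.9%) lay above the median of the table. The share called and the size of the difference thus pointed to opposite sides of the background; the median log2 reads in VEH were 9.26 on the domains and 6.54 over all sites. None of the domains was called lower (0% of all sites), and none had an unadjusted p below 0.05 on the lower side in the authors' deposited table. The name of this table holds the second CORT library only, and the sources used here do not say whether the replicate with 1810 peaks entered it.

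The 5 smallest p among higher domains at 15 weeks belonged to chr3:95795920-95800867 (1.32), chr4:141427459-141431765 (1.45), chr7:87169166-87173987 (1.21), chr4:144480660-144485653 (1.04) and chr6:85321487-85325546 (1.17). On the first, the log2 reads for H3K27ac were 9.92 in VEH and 11.25 in CORT with an FDR of 6.84e-06 in the authors' deposited table, and H3K4me3 there went from 9.40 to 10.58. Its H3K4me3 width was 3745 and 5743 bases in VEH and 6771 and 6317 in CORT at 15 weeks. The CORT widths were above the VEH widths, as held for 36.9% of all 19007 H3K4me3 peaks. The H3K27ac difference was largest on chr16:52450030-52454955, singled out after its values were seen, with 6.01 in VEH and 8.04 in CORT at 15 weeks (2.02, FDR 0.000951). Its H3K27ac peak at 15 weeks was absent and 2007 bases wide in VEH and absent and 3003 bases in CORT, while its H3K4me3 peak stayed between 4908 and 5650 bases in all 8 libraries. At 5 weeks it also had the largest H3K27ac difference among the domains (1.22, FDR 0.101, not called).

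The H3K27ac difference became smaller with width among the H3K4me3 peaks of 2 kilobases and over at 15 weeks. It had a median of 0.70 on peaks of 2 to 3 kilobases, 0.67 at 3 to 4, 0.63 at 4 to 5, 0.58 at 5 to 6, 0.53 at 6 to 8 and 0.42 on the 36 domains of 8 kilobases and over. At 5 weeks the same classes had medians of 0.47, 0.46, 0.46, 0.45, 0.45 and 0.42, and for H3K4me3 at 15 weeks 1.13, 1.10, 1.06, 1.07, 1.06 and 1.01. Peaks below 1 and of 1 to 2 kilobases had H3K27ac medians of 0.705 and 0.69 at 15 weeks and 0.55 and 0.52 at 5 weeks. Their H3K4me3 medians at 15 weeks were 0.86 and 1.07, so that H3K4me3 first rose with width. Within the 702 domains, width and difference were weakly related, with a Spearman rho of -0.093 for H3K27ac at 15 weeks (n = 697), -0.028 at 5 weeks (n = 700) and -0.051 for H3K4me3 at 15 weeks (n = 701). The classes differ in reads as well, from a median log2 of 7.58 in VEH for H3K27ac at 2 to 3 kilobases to 10.58 at 8 and over, and the part of this in the differences was not tested.

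**Figure D3:**
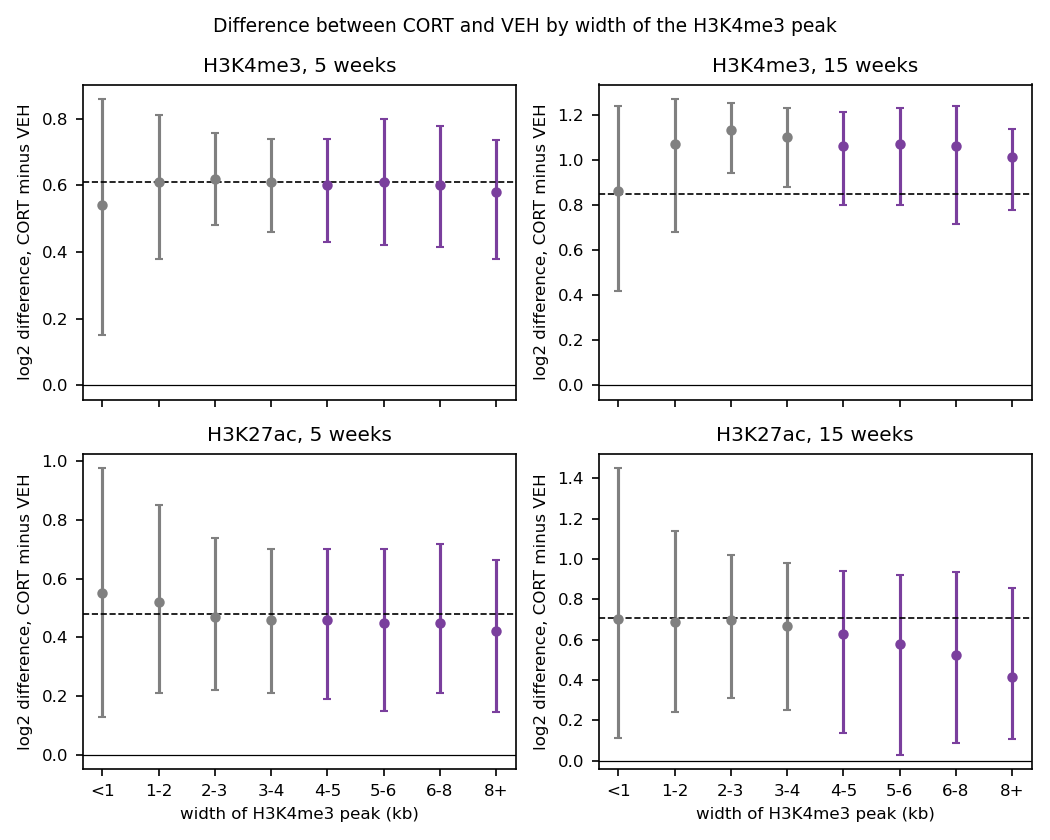
Log2 difference between CORT and VEH (authors' deposited tables) against width of the H3K4me3 peak in kilobases, as median (point) with the 10th and 90th percentiles (bars), for H3K4me3 and H3K27ac at 5 and 15 weeks; broad domains are purple, narrower peaks grey, the dashed line is the median of all sites in the table. H3K27ac at 15 weeks goes from 0.70 at 2 to 3 kilobases to 0.42 at 8 kilobases and over, and H3K4me3 at 15 weeks lies above its table's median of 0.85 in all 4 classes of broad domains.

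On the 10 widest domains the H3K4me3 difference at 15 weeks was 0.74 to 1.17. All 10 were called, beside 95.4% of all domains and 47.1% of all sites. The H3K27ac difference on the 10 was 0.12 to 0.61 at 5 weeks. None was called, beside 23.7% of all domains and 17.2% of all sites. At 15 weeks it was 0.18 to 0.92, with 5 of the 10 called, beside 34.9% of all domains and 15.5% of all sites. No test was made of these counts. On the widest, chr5:143574346-143585674, H3K27ac had log2 reads of 11.12 in VEH and 12.04 in CORT at 15 weeks (0.92, FDR 0.00123 in the authors' deposited table). On chr14:22801213-22811291 it had 10.66 and 10.84 (0.18, FDR 0.602), although H3K4me3 there was 0.91 higher with an FDR of 4.02e-08.

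The calls of the 2 marks were nested over the domains. All 243 domains called for H3K27ac at 15 weeks were also called for H3K4me3, as were 165 of the 166 at 5 weeks, where H3K4me3 was called on 95.4% and 90.2% of the domains. The H3K27ac calls of the 2 times shared 102 domains, 61.4% of those at 5 weeks and 42.0% of those at 15 weeks, and these 102 were called in all 4 tables. A further 20 domains were called in none of the 4. The differences of the 2 marks had a Spearman rho of 0.697 at 5 weeks (n = 700) and 0.683 at 15 weeks (n = 697), and H3K27ac at 5 and 15 weeks one of 0.641 (n = 697). These are descriptions over regions, and the marks at 1 time were measured in tissue of the same groups.

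A small group of domains stood below 0 for H3K27ac. It counted 24 domains at 5 weeks and 42 at 15 weeks, and 19 were in both, 79.2% of the former and 45.2% of the latter. The 19 were chosen by their H3K27ac, so its values here are a description. Their H3K4me3 difference at 15 weeks had a median of 0.62, from 0.26 to 0.91, with 11 of 19 called higher and 15 below the median of all sites. Their median width, 5044 bases, was near that of all domains. They included chr8:11000790-11010345, at 9556 bases the 13th widest domain, with an H3K27ac difference of -0.26 at 5 weeks and -0.10 at 15 weeks and an H3K4me3 difference of 0.89 at 15 weeks (FDR 3.9e-06 in the authors' deposited table). The lowest H3K27ac value at 15 weeks, -0.65 on chr14:64561221-64565832 with 8.76 in VEH and 8.11 in CORT, had an FDR of 0.523. The 4 domains next to it by p on the lower side were chr17:46164074-46170021 (-0.49), chr9:48641391-48645777 (-0.44), chr11:101902566-101906735 (-0.16) and chr15:12476254-12480406 (-0.38), none called.

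**Figure D4:**
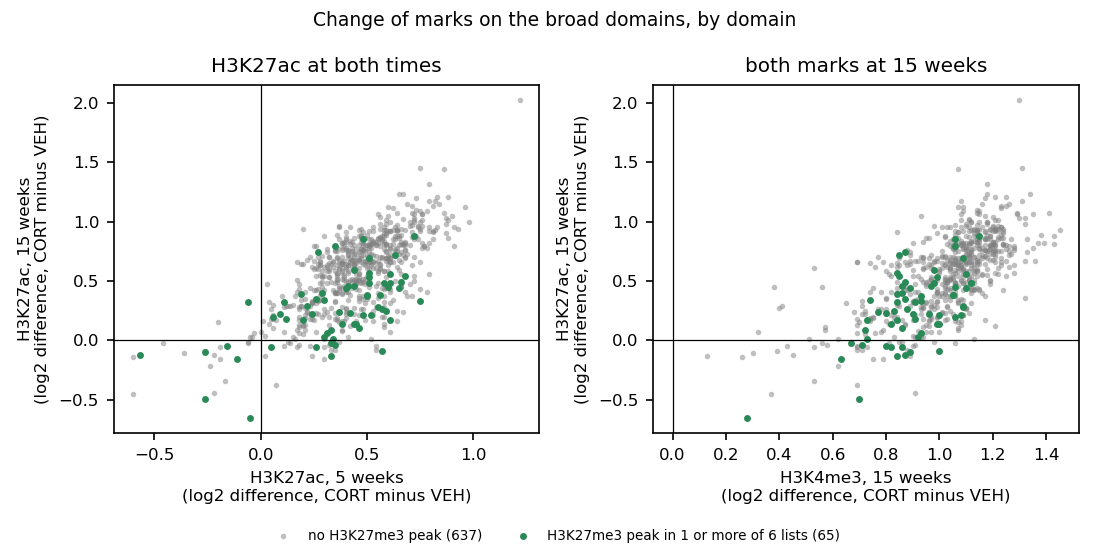
Each point is 1 broad domain; axes are log2 differences between CORT and VEH from the authors' deposited tables, for H3K27ac at 5 against 15 weeks (left) and H3K4me3 against H3K27ac at 15 weeks (right). The 65 domains with an H3K27me3 peak in at least 1 of the 6 lists outside VEH at 5 weeks, mostly lists of CORT, are green. They have a median H3K27ac difference of 0.27 at 15 weeks, against 0.63 on the 637 others in grey.

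H3K27me3 was absent from the domains in VEH at 5 weeks by the rule. In the other lists it overlapped 48 and 3 domains in CORT at 5 weeks, 0 and 9 in VEH at 15 weeks, and 1 and 46 in CORT at 15 weeks. Each CORT count rested on 1 of 2 libraries, and those were the libraries with the longer lists, 11090 against 4430 peaks at 5 weeks and 9105 against 4599 at 15 weeks. The VEH list at 15 weeks with 9 domains held 8284 peaks. Ordinary-width peaks were free of H3K27me3 in VEH at 5 weeks as well. Under the rule of 1 shared base, 5.66% of them were overlapped in CORT at 5 weeks replicate 1, against 6.84% of the domains. In CORT at 15 weeks replicate 2 it was 3.97% against 6.55%. In the shorter lists the ordinary-width peaks had the higher share, beside at most 9 domains per list. It was 0.7215% against 0.4274% in CORT at 5 weeks replicate 2 and 0.2551% against 0.1425% in CORT at 15 weeks replicate 1. In VEH at 15 weeks it was 0.07288% against 0% in replicate 1 and 1.501% against 1.282% in replicate 2. The domains are wider than ordinary-width peaks, and no test of these differences was made. The H3K27me3 peaks on the domains were short, with a median of 1154 bases in CORT at 5 weeks replicate 1 and 1115 in CORT at 15 weeks replicate 2. Of the domains, 30 were overlapped in both, 62.5% of the former and 65.2% of the latter, and 65 were overlapped in at least 1 of the 6 lists.

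At 15 weeks, 15 domains had an H3K27me3 site in the authors' deposited table, of which 2 were called higher (13.3%), against 15.9% of all 5992 sites. They were chr14:100682285-100686399, with log2 reads of 4.48 in VEH and 5.76 in CORT (FDR 0.0238), and chr9:63864470-63871208, with 4.58 and 5.79 (FDR 0.0429). Since the rule removed domains with H3K27me3 in VEH at 5 weeks, and the CORT lists at 15 weeks held such peaks on 1 and 46 domains against 0 and 9 in VEH, a site was there mostly where CORT was high, and the direction of the 15 is not read. Reads were few, with a median log2 of 4.41 in VEH, and the authors' FDR is 1 for 7 of the 15, 5 of which have an unadjusted p below 0.05. Another of them, chr7:80535287-80539296, had 4.01 and 5.42 with an FDR of 1, as did 2.71 and 4.56 at 5 weeks. At 5 weeks, where the rule fixed the vehicle at no peak, 26 domains had a site and 4 were called higher, beside 16.7% of all 7792 sites, among them chr15:11832762-11837464 (1.09), chr11:69613875-69618281 (1.19) and chr2:27740964-27745260 (0.92).

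The 65 domains with H3K27me3 in some other list had lower H3K27ac differences than the rest. They entered mostly through CORT lists, with 48 and 3 domains at 5 weeks and 1 and 46 at 15 weeks, against 0 and 9 in VEH at 15 weeks. The group was thus picked largely by values of CORT, and the comparison is a description. At 15 weeks the median of the 65 was 0.27 against 0.63 on the 637 domains without H3K27me3 in any list. Of the former 0 of 64 were called higher, against 243 of 633 (38.4%). At 5 weeks the medians were 0.41 and 0.46, with 10 of 65 called (15.4%) against 156 of 635 (24.6%). On the 9 domains with such a peak in VEH at 15 weeks replicate 2, the medians were 0.44 at 15 weeks and 0.48 at 5 weeks. Of these 9 domains, 0 were called at either time. H3K4me3 at 15 weeks had medians of 0.89 and 1.07, with 60 of 65 called (92.3%) and 609 of 636 (95.8%). The 65 domains had fewer H3K27ac reads (median log2 8.58 against 9.32 in VEH at 15 weeks) but a like width (median 4771 against 4780 bases), and no test of these differences was made. For comparison, the 63 wide peaks that the rule set aside for H3K27me3 in VEH at 5 weeks had a median H3K27ac difference of 0.27 at 15 weeks and 0.56 at 5 weeks. Of these, 8 of 53 with a site were called higher at 15 weeks (15.1%) and 23 of 59 at 5 weeks (39.0%). Over all sites the shares were 15.5% and 17.2%.

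The RNA of 10 enzyme genes, named by function, was read beside the domains. They were enzymes that write or erase H3K4 methylation and Kdm2b, which was listed for its binding to CpG islands and not as a demethylase of H3K4me3. At 5 weeks 9 of the 10 were lower in CORT, against 21.5% of all 15601 genes tested, and 0 of 10 were higher, against 22.3% (limma on log2(FPKM + 1), adjusted p below 0.05 over all genes). The median difference of the 10 was -0.63, beside 0.01 over all genes. The methyltransferases moved together by library: each was highest in replicate 1 and lowest in replicate 3 of CORT at 5 weeks. Each was also lowest in replicate 1 of VEH at 5 weeks. The demethylases did not all share this order. The calls are thus not independent of each other, and the reason for the shared order was not tested. Kmt2d, a methyltransferase best known for enhancer H3K4 methylation, had the largest difference, from 9.01 ± 2.38 FPKM (SD, n = 5) in VEH to 4.30 ± 2.11 in CORT (log2 difference -0.96, SE 0.24, adjusted p = 0.00312). Kmt2c, its close relative, went from 20.3 ± 2.16 to 13.2 ± 1.10 FPKM (-0.58, SE 0.09, adjusted p = 3.56e-05), with a lowest VEH library of 16.9 and a highest CORT library of 14.4, so that the groups do not overlap. Kmt2a had 6.88, 10.2 and 10.9 FPKM as lowest, median and highest VEH library and 3.47, 4.97 and 7.44 in CORT, which overlap (adjusted p = 0.00102).

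Setd1a and Setd1b, methyltransferases of the H3K4me3 complexes, were lower by -0.67 and -0.81, and Kmt2b by -0.69. Among the demethylases Kdm5a was lower by -0.43, Kdm5c by -0.26 and Kdm2b, a demethylase bound to CpG islands, by -0.50, while Kdm5b had a difference of -0.13 that did not pass the test (adjusted p = 0.292). Without the 7 libraries with transcripts of other tissues, 3 of the 10 were lower at 5 weeks, Kmt2c, Kdm5a and Kdm2b. At 15 weeks 1 of the 10 was lower, Kdm5a with 19.9 ± 1.61 FPKM in VEH and 15.1 ± 1.89 in CORT (-0.39, adjusted p = 0.00796), against 6.8% of all genes, and 0 were higher, against 3.83%. The Kdm5a call was lost without the 7 libraries, where the log2 difference was -0.34 (adjusted p = 0.053 in limma, with fewer libraries), and with equal sums of FPKM, where it was -0.22 (adjusted p = 0.109), a scaling that moved the median of all genes at 15 weeks to 0.134. The effect of CORT was higher (less negative or above 0) at 15 than at 5 weeks by the interaction term for 5 of the 10, Kmt2a, Kmt2c, Kmt2d, Setd1a and Setd1b (adjusted p from 0.0198 to 0.0393 in limma), against 6.57% of all genes, and lower for 0, against 10.1%. None of these 5 passed without the 7 libraries with transcripts of other tissues (adjusted p from 0.174 to 0.412 in limma). On leaving out each of the 20 libraries in turn, the interaction call was lost in 0 cases for Kmt2c, 5 for Kmt2d, 8 each for Kmt2a and Setd1a and 13 for Setd1b. The Kdm5c call at 5 weeks was lost in 5 of 20 cases, CORT at 5 weeks replicates 2, 3 and 4 and VEH at 5 weeks replicates 2 and 5 (highest adjusted p = 0.0697 in limma). RNA and H3K4me3 were measured in different libraries, and a link between enzyme RNA and domain signal was not tested.

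**Figure D5:**
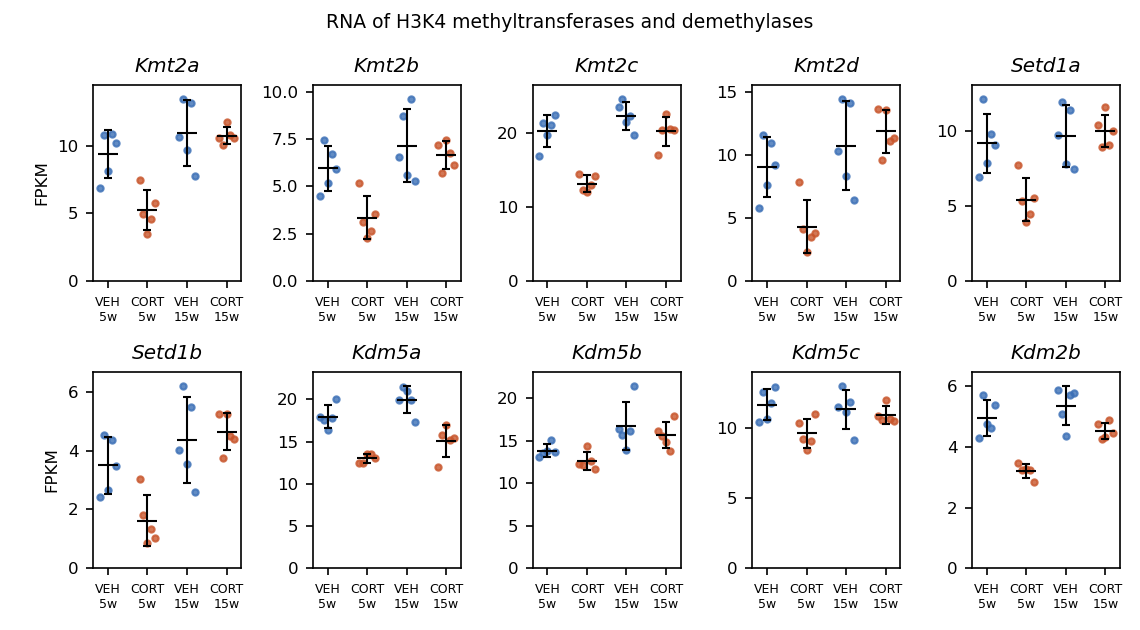
FPKM of 10 genes for H3K4 methyltransferases, H3K4me3 demethylases and Kdm2b in the 4 groups, with 1 point per library (n = 5). The horizontal mark is at the mean, bars are 1 SD and axes start at 0. CORT at 5 weeks has a lower mean than VEH at 5 weeks for all 10 genes, with 9 past the test, and at 15 weeks Kdm5a is the one past the test.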

How the data were processed

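The domains and gene lists were chosen with earlier results of these data known. Per the submitters' processing notes, TopHat, Bowtie, DESeq2 and DiffBind were used with the builds mm9 and dm3; their roles, the aligner settings and the peak caller's settings are not given in the sources used here. Each deposited peak list gives 1 library's peaks with a score from the authors' peak caller (50.0 to 3233). The deposited ChIP tables give per site the authors' log2 mean normalized reads, log2 differences, p-values and FDR; these hold group values, so no test was run on them. The deposited RNA table gives the authors' FPKM for 24338 genes.

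Peaks were joined by overlap of at least 1 base (Python 3.11.15, pandas 2.3.3). RNA was tested with limma 3.58.1 in R 4.3.3 (trend method, log2(FPKM + 1), genes with at least 0.5 FPKM in at least 5 libraries, 1 model of 4 group means over 20 libraries, two-sided, Benjamini-Hochberg adjustment) after a test on simulated data. Log2 differences of FPKM + 1 understate low genes. Replicate numbers did not pair the RNA libraries. The domains named are the 10 widest, the 3 on each side of the threshold and up to 5 per direction with the smallest p in each table. All others, the closest pairs among them, were chosen after their positions or values were seen. The 10 enzymes were named by function. RNA of genes at the domains is not analysed here, since no source used here pairs mm9 positions with genes. The alternatives were other FDR, overlap and width limits, and for RNA other pseudocounts, filters, scalings and libraries.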

Additional observations from a re-analysis of the deposited data

Results flagged for a closer look

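The RNA effect of CORT differed between 15 and 5 weeks for 5 of the 10 enzyme genes, by the interaction term of the limma model with adjustment over all genes (effect at 15 weeks minus effect at 5 weeks, log2). The difference was 0.748 for Kmt2a (adjusted p = 0.0311), 0.4469 for Kmt2c (adjusted p = 0.0198), 1.139 for Kmt2d (adjusted p = 0.0282), 0.7295 for Setd1a (adjusted p = 0.0321) and 0.9176 for Setd1b (adjusted p = 0.0393). None of the 5 passed in limma without the 7 libraries with transcripts of other tissues. Leaving out 1 library ended the call of Kmt2d for CORT at 5 weeks replicate 4, VEH at 5 weeks replicates 2 and 4, CORT at 15 weeks replicate 3 and VEH at 15 weeks replicate 3. Each of these also ended the calls of Kmt2a, Setd1a and Setd1b, as did CORT at 5 weeks replicate 2 and VEH at 15 weeks replicate 5. VEH at 5 weeks replicate 5 ended those of Kmt2a and Setd1b, and CORT at 5 weeks replicate 3 those of Setd1a and Setd1b. Setd1b alone was lost without CORT at 5 weeks replicate 5, CORT at 15 weeks replicates 1 and 4 or VEH at 15 weeks replicate 1. Over these cases the highest adjusted p was 0.0762 in limma. The Setd1b call was also lost with quantile normalization (adjusted p = 0.067 in limma) and with no filter (adjusted p = 0.0644), and those of Kmt2a and Setd1a with the replicate block (adjusted p = 0.05 each), though the numbers are not known to pair libraries. One library lay far from the others of its group: Kdm5c in CORT at 15 weeks replicate 3, with 12.01 FPKM beside 10.5 to 10.9 in the other 4. Over 40 groups of 5 libraries, chance gives such a gap in about 1 of 20.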

How the results depend on the processing

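The shares of domains called kept within 1.5 times of the reported value for H3K4me3 at both times, and for its recurrence in width, under each alternative run. At an FDR below 0.01 the share called higher was 0.857% (5 weeks) and 12.5% (15 weeks) for H3K27ac and 0% for H3K27me3 at 15 weeks, and with domains of at least 5000 bases the latter was 20.0% (1 of 5 sites). The shares of all sites at an FDR below 0.01 were not computed. Of the enzyme genes lower in CORT, 3 were called at 5 weeks and 0 at 15 weeks without the 7 libraries with other tissues; at 15 weeks the count was 0 with equal sums of FPKM and 2 with quantile normalization. Leaving out each library in turn gave 8 to 9 at 5 weeks and 1 at 15 weeks. These RNA alternatives were chosen after seeing the data. With the replicate block the counts were 9 and 1; the numbers are not known to pair libraries, whose correlations by number ran from -0.476 to 0.365. Of 416 values for single genes, 360 kept their call, 56 lost it and 0 reversed. Other settings for RNA of genes at the domains were not run, since positions are not paired with genes. Sites with few reads, those of H3K27me3 above all, limit what can be called, and the short H3K27ac list leaves CORT at 15 weeks with 1 list of usual length.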
